A study of Mus musculus with 16 samples.

Results

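The 1079 named loci of mouse chromosome 8 described here are the rows of the deposited expression table that lie on chromosome 8 and carry a gene name, less 27 loci taken out by gene name or family (among them Fgfr1, Cdh1, Nrp1 and genes of the ribosome, the respiratory chain, collagens and integrins). They stand among 23282 named loci in all, of which 22176 lie on other chromosomes. RNA was measured in embryoid bodies at day 6 of SFEBq culture, a serum-free aggregation method that turns mouse embryonic stem cells into eye-field tissue, in medium with 5% KSR and with 2% Matrigel added at day 1. All groups come from stem cells with GFP knocked into the Rx locus. The WT group is the untreated parent genotype, and the KO group is a Wdr5 knockout clone (number 3) without doxycycline. T12h and T48h are the knockout with an inducible human WDR5 to which doxycycline was added at 12 h or 48 h. The knockout is represented by 1 clone, so what is particular to that clone and what follows from the loss of Wdr5 cannot be told apart. Each group has 2 libraries that the study calls biological duplicates, with nothing said of separate cultures, so p-values measure the spread between these libraries.

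Mouse chromosome 8 carries genes of nearly every cellular system, from the replication helicase subunit Mcm5 to the lysosomal membrane protein Lamp1, and several clusters of related genes: carboxylesterases, metallothioneins, Iroquois factors and defensins. Wdr5 is a core subunit of the complexes that methylate lysine 4 of histone H3. An additional chromosome 8 is a recurrent change in cultured mouse embryonic stem cells, and an extra chromosome usually raises the RNA of most of its genes roughly in proportion to copy number. Copy number was not measured here, so its part in the values below was not tested. For reference, 3 copies in place of 2 with output in proportion would give a ratio of 1.5, or 0.58 on the log2 scale.

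Promoter windows of 4 members are shown as examples only. Mcm5 and the splicing factor gene Sf3b3 are expressed in every group and are named among the most abundant members. The carboxylesterase Ces2g and the blood-forming factor Lyl1 were near 0 in WT, with their highest levels in KO and in T48h, in that order. Each window runs from 250 bases before to 50 bases after the start, from RefSeq (GRCm38.p6, the build mm10), 5′ to 3′ on the strand of the gene, with CG dinucleotides in capitals. Mcm5 lies on the plus strand at chr8:75109259-75109558, Sf3b3 on the minus strand at chr8:110846754-110847053, Ces2g on the plus strand at chr8:104961468-104961767 and Lyl1 on the plus strand at chr8:84701207-84701506.
Mcm5: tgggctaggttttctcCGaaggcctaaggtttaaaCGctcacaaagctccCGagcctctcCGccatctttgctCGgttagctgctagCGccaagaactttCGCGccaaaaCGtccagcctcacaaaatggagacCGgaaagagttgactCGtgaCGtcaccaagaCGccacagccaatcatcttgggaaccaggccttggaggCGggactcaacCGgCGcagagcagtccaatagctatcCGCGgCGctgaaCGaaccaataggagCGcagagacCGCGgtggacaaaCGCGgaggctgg
Sf3b3: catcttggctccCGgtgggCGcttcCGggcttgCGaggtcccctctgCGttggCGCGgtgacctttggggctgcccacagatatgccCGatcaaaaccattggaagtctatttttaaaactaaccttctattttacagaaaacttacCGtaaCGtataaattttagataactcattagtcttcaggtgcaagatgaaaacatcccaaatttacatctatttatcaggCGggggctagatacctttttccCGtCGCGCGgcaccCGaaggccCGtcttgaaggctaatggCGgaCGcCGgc
Ces2g: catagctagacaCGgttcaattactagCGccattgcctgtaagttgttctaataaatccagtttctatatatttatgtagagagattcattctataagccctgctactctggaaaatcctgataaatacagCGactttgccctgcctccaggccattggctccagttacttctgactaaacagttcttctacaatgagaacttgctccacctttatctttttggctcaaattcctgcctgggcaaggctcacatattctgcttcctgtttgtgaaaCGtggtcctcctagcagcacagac
Lyl1: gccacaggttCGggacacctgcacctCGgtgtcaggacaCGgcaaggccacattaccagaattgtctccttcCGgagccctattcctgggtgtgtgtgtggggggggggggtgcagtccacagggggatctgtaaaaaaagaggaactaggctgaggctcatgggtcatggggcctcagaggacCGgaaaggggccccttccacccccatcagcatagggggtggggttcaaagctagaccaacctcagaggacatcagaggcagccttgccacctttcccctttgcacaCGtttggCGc
The Mcm5 window holds 25 CG (reads the same on both strands) and the Sf3b3 window 20, against 4 in that of Ces2g and 7 in that of Lyl1. With a CG count of at least 0.6 of that expected from base composition and at least 50% G or C, 33.5% of the 32851 windows in the RefSeq table are CG-rich; those of Mcm5 and Sf3b3 are, and those of Ces2g and Lyl1 are not. Only 565 of the 829 tested members (68.2%) had a window, fewer than the 80% set for a comparison, so members were not compared by promoter. Among other members named below, the windows of the abundant Fat1 and of Aprt are not CG-rich, while those of Jph3, Irx3 and Klf2 are. Aprt, at 0.59 of the expected CG count, fell just short of the limit. Whether the RefSeq start of a gene, such as Fat1, is the one used in these cells was not tested.

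The libraries held 32476672 to 65687435 fragments in named genes, and 16130 genes passed the filter on low counts. Of the members, 829 were tested and 250 were not: 100 had no count in any library, 72 had 1 to 10 and 78 had more. The untested members include 33 of the 34 defensins, 15 of the 19 carboxylesterases and 66 unnamed gene models. Wdr5 itself, off chromosome 8, stood at 186 and 187 CPM (counts scaled to library size) in WT, 32.5 and 28.4 in KO, 329 and 337 in T12h, and 280 and 294 in T48h. The KO level is a log2 fold change of -2.61 ± 0.08 from WT (SE, edgeR adjusted p = 2.7e-11). Reads of the human WDR5 could be counted at this gene, which was not tested. The cultures differed in cell type markers. Summed CPM of 5 eye-field genes (Rax, Pax6, Six3, Six6, Lhx2) was 1281 to 1329 in WT and 1535 to 1568 in T12h, but 5.15 to 8.51 in KO and 18.6 to 20.1 in T48h. Summed CPM of 3 endoderm genes was 49.8 to 52.6 in WT, 308 to 312 in KO, 69.4 to 79.1 in T12h and 278 to 286 in T48h. For 6 cardiac and lateral mesoderm genes the sums were 89.0 to 92.7, 216 to 227, 92.2 to 105 and 975.1 to 1052 in the same order, for 3 endothelial genes 89.98 to 93.00, 69.8 to 72.8, 132 to 137 and 533 to 547, and for 4 fibroblast genes 54.0 to 60.6, 15.8 to 17.8, 95.1 to 120 and 772 to 839. A list of 5 pluripotency genes summed to 374 to 380, 597 to 613, 310 to 317 and 27.0 to 28.3. No listed marker was at 0 in any group. T12h was nearest to WT in the eye-field, pluripotency, endoderm and cardiac sums, and KO in the endothelial sum. The part of these markers in the results below was not tested, and in such bulk samples fewer cells of a type and less RNA per cell cannot be told apart.

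Chromosome 8 genes were higher than in WT in all groups of the clone, by a similar amount and with very different scatter. In T12h, 444 of 829 members rose and 11 fell (edgeR's quasi-likelihood test, adjusted p under 0.05), while over all 16130 genes tested 7.9% rose and 6.11% fell. In KO, 425 rose and 149 fell, against 31.7% and 32.4% of all genes. In T48h, 422 rose and 98 fell, against 23.9% and 23.4% of all genes. The 3 comparisons share the WT libraries. The median log2 fold change of the members was 0.49 in T12h, 0.48 in KO and 0.39 in T48h, and that of the 15278 genes off chromosome 8 was -0.02, -0.02 and -0.06. The members' medians thus exceeded the rest by 0.50, 0.50 and 0.45, ratios of 1.42, 1.42 and 1.37, which all lie below 1.5.

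The scatter around these medians set the groups apart. Quartiles of the members were 0.25 and 0.66 in T12h, -0.16 and 1.22 in KO, and -0.16 and 0.72 in T48h. The interquartile range of the members (0.42, 1.38 and 0.88) was close to that of genes off chromosome 8 in the same comparison (0.47, 1.51 and 0.98). In each group the members' median was shifted, with about the spread the rest of the genome had. These widths do not show whether single members moved by the same amount. After the median of genes off chromosome 8 was subtracted, 412 members (49.7%) lay within 0.2 of the 3 to 2 value in T12h, 249 (30.0%) in T48h and 140 (16.9%) in KO, against 7.64%, 10.6% and 9.95% of genes off chromosome 8. Another 96 members (11.6%) in T12h lay within 0.2 of no change, where 45.8% of the other genes lay. These shares were 14.1% of the members and 16.3% of the other genes in KO, and 12.2% and 26.2% in T48h.

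**Figure D1:**
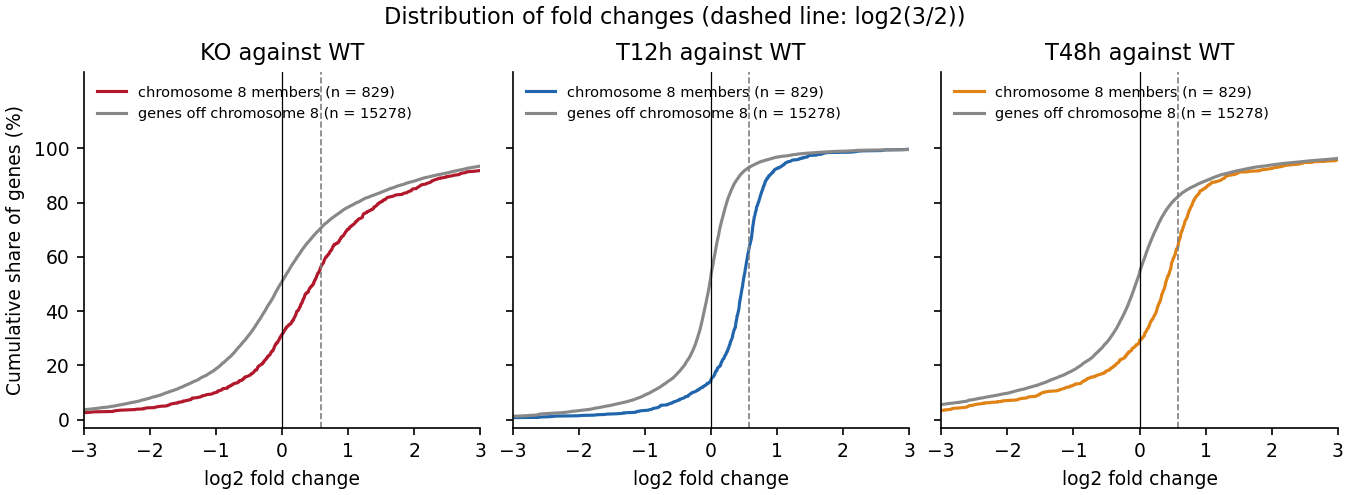
Cumulative share of genes (y axis, %) by log2 fold change against WT (x axis) in KO, T12h and T48h, for the 829 tested members (coloured) and 15278 genes off chromosome 8 (grey). The member curves sit to the right of the grey ones, with medians of 0.48, 0.49 and 0.39, and the T12h curve is the steepest.

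Other chromosomes showed no shift of this size. Their medians ran from -0.19 to 0.07 in KO, from -0.06 to 0.02 in T12h and from -0.12 to 0.05 in T48h over 19 chromosomes. The share of genes that rose was at most 8.33% on any other chromosome in T12h, where 53.6% of the members did.

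**Figure D2:**
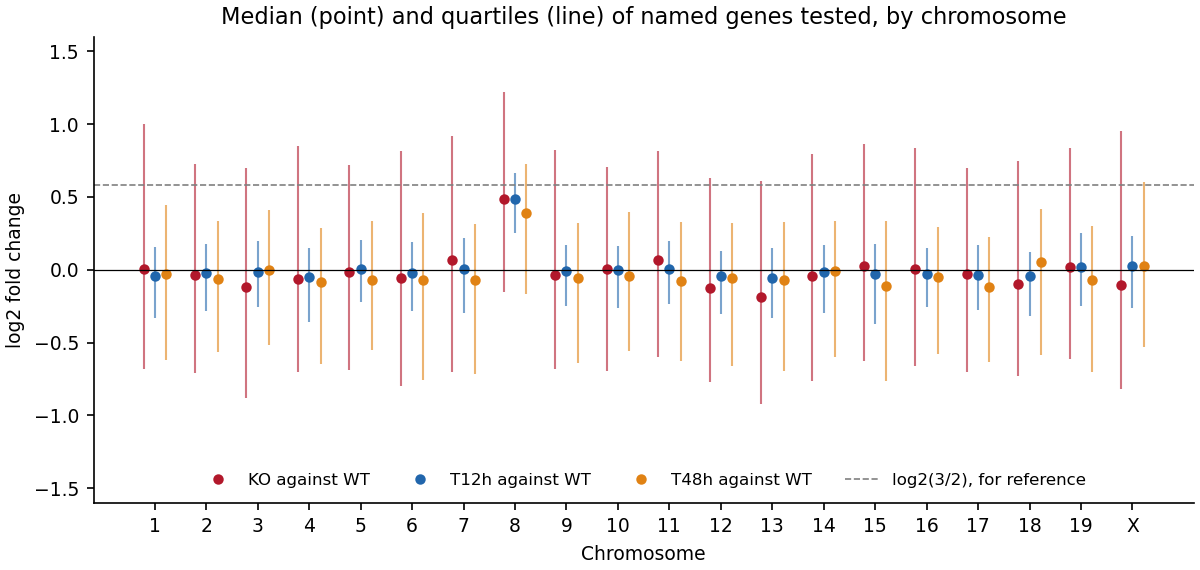
Median (points) and quartiles (lines) of the log2 fold change against WT (y axis) for all named genes tested on each chromosome (x axis), in KO, T12h and T48h. Chromosome 8, with its left-out loci included here, stands above all others in each group, below the dashed line at log2(3/2).

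The replicates were close. Relative to the WT mean and to genes off chromosome 8, the members' median log2 level was 0.00 in both WT libraries, 0.46 and 0.48 in KO, 0.52 and 0.49 in T12h, and 0.46 and 0.43 in T48h. Libraries of the clone do not overlap with WT. The members took 4.34% of counts in both WT libraries, 6.20% and 6.19% in KO, 6.06% and 6.03% in T12h, and 5.76% and 5.75% in T48h.

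Within the clone the shift of the median was nearly gone. Of the members, 300 were higher and 263 lower in T12h than in KO, against 32.8% and 32.1% of all genes, and the members' median exceeded that of genes off chromosome 8 by 0.06. For T48h against KO the counts were 276 and 304, against 34.2% and 33.2%, with a difference in medians of -0.08. For T48h against T12h they were 181 and 253, against 24.9% and 25.3%, with a difference of -0.06. These differences are small beside 0.45 to 0.50 but larger than the replicate spread of the median, 0.02 to 0.03.

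On the count scale the size of the shift depended little on expression level in T12h. Genes were split into quartiles by mean log2 CPM over the 8 libraries, with limits at 1.73, 18.2 and 63.9 CPM; CPM is not corrected for length. From the lowest to the highest quartile (173, 176, 215 and 265 members), the T12h median of the members exceeded that of genes off chromosome 8 in the same quartile by 0.46, 0.41, 0.50 and 0.50. In T48h the differences were 0.30, 0.40, 0.46 and 0.44. In KO they were 0.81, 0.41, 0.41 and 0.52, so that the lowest quartile stood apart. A gene of that quartile could pass the filter on low counts through KO alone. The KO difference there is therefore not read as an effect of expression level. In that quartile the KO medians of the members and of the other genes were 1.64 and 0.84, and the 2 KO libraries gave differences of 0.83 and 1.03. On the scale log2(FPKM + 1), which compresses low values, the KO difference in the highest quartile exceeded that in the lowest by 0.36, where on the count scale it was smaller by 0.29; the order of the lowest quartile in KO thus turned with the scale. In T12h the highest quartile exceeded the lowest by 0.04 on the count scale, by 0.27 on log2(FPKM + 0.1) and by 0.43 on log2(FPKM + 1). With fixed limits of 1, 10 and 100 CPM, the T48h differences were 0.47 below 1 CPM, 0.26 from 1 to 10, 0.45 from 10 to 100 and 0.44 above, so which level had the smallest T48h difference turned with the limits.

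What expression level changed was the spread and the number of calls. In T12h the interquartile range of the members fell from 1.39 in the lowest quartile to 0.63, 0.28 and 0.22 in the next ones, and that of other genes from 1.40 to 0.60, 0.31 and 0.24. The calls followed: 2 of 173 members rose in the lowest quartile, 48 of 176 in the second, 153 of 215 in the third and 241 of 265 (90.9%) in the highest, where 9.58% of genes off chromosome 8 rose. In the highest quartile 169 of 265 rose and 40 fell in KO, against 29.0% and 43.7% of genes off chromosome 8, and 222 rose and 10 fell in T48h, against 35.5% and 18.0%.

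**Figure D3:**
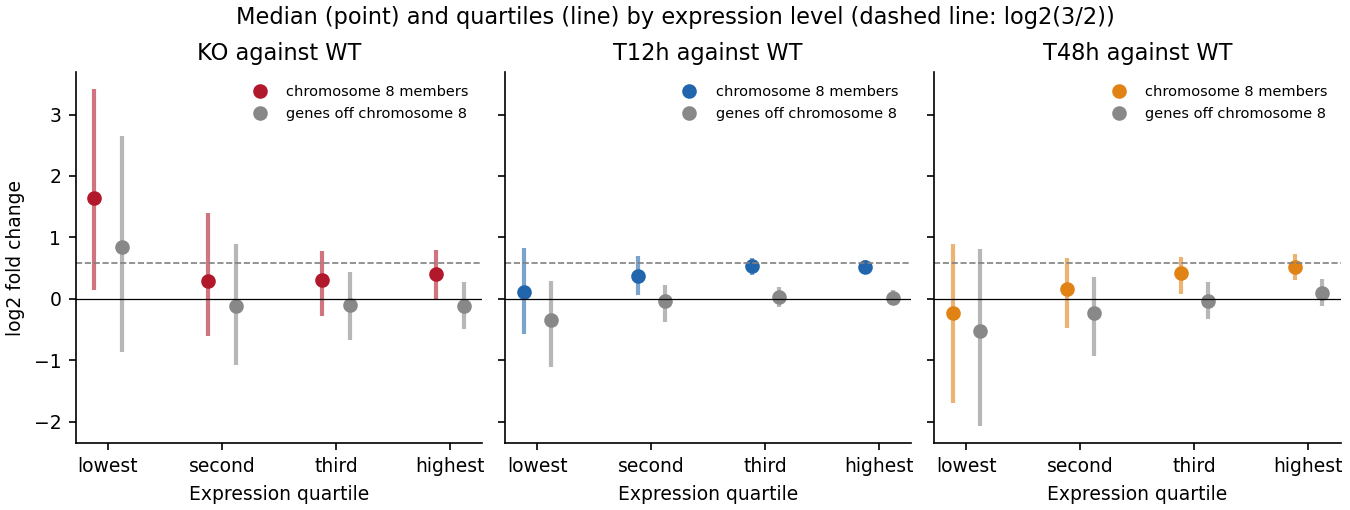
Median (points) and quartiles (lines) of the log2 fold change against WT (y axis) by expression quartile (x axis), for members (coloured) and genes off chromosome 8 (grey). The gap between the colours is 0.41 to 0.50 in every quartile of T12h, while the lines shorten from the lowest to the highest quartile.

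The most abundant members by CPM show the same. Cnot1, the scaffold of the CCR4-NOT deadenylase (chr8:95719451-95821728), stood at 693 and 710 CPM in WT, 978 and 1010 in KO, 934 and 1013 in T12h, and 1015 and 1093 in T48h. All 6 libraries of the clone were above both WT libraries, with log2 fold changes of 0.50 ± 0.07, 0.47 ± 0.07 and 0.59 ± 0.07 (SE; adjusted p = 2.6e-05, 0.00053 and 1.1e-05). Mcm5, a subunit of the replicative helicase, had 458 and 445 CPM in WT, 606 and 652 in KO, 670 and 642 in T12h, and 552 and 502 in T48h. It rose by 0.48 in KO and 0.54 in T12h. Its rise in T48h was 0.22 (edgeR adjusted p = 0.020). This call was lost without any 1 of both WT libraries, KO replicate a, both T12h libraries or T48h replicate a (0.12 to 0.20). It was also lost with upper-quartile scaling (0.10), without a filter on low counts (0.17) and on log2(FPKM + 1) and log2(FPKM + 0.1) (0.25 each). The mitochondrial ADP/ATP carrier Slc25a4 had 476 and 458 CPM in WT and rose by 0.54, 0.63 and 0.42 in KO, T12h and T48h.

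Other abundant members parted between the groups. Lamp1 stood at 341 and 354 CPM in WT, 1726 and 1730 in KO, 602 and 627 in T12h, and 574 and 522 in T48h. Its rise was 2.31 ± 0.07 in KO against 0.82 ± 0.07 and 0.66 ± 0.07 in the other groups, so its KO level lay apart from all other libraries. Calr, the endoplasmic reticulum chaperone calreticulin, rose by 1.22, 0.42 and 0.93, the protocadherin Fat1 by 1.51, 0.26 and 0.40, and the deubiquitinase Otud4 by 1.35, 0.30 and 0.74. Pcm1, a centriolar satellite protein, fell by 0.44 in KO and rose by 0.26 in T12h and 0.65 in T48h. The splicing factor Sf3b3 fell by 0.19 in KO and rose by 0.39 in T12h and 0.25 in T48h. Glg1, a Golgi glycoprotein, did not pass in KO (-0.12, adjusted p = 0.14) and rose by 0.38 and 0.91. Tnks, the poly(ADP-ribose) polymerase tankyrase, likewise had 0.16 in KO (adjusted p = 0.087) and rose by 0.43 and 1.44, and the chromatin regulator Ankrd11 rose by 0.22, 0.35 and 0.84. All 12 most abundant members rose in T12h, with 0.26 to 0.82. The T12h calls of Fat1 and Otud4 were lost without any of the WT or T12h libraries in turn (log2 fold changes of 0.23 to 0.29), that of Fat1 also without KO replicate a (0.26), that of Pcm1 without WT replicate b (0.21) or T12h replicate b (0.20), and that of Ankrd11 without WT replicate b (0.28). The T12h calls of Fat1 and Pcm1 were also lost with upper-quartile scaling (0.22 each) and on both FPKM scales (0.26 each). Sf3b3 in KO lost its call without either KO library, at -0.21 and -0.20, with RLE scaling at -0.13 and on both FPKM scales at -0.12. The KO call of Ankrd11 was lost without WT replicate b (0.12) or either KO library (0.23 and 0.18). That of Sf3b3 in T48h was lost without either WT library (0.20 and 0.21) and with upper-quartile scaling (0.13).

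In the highest quartile 24 members did not rise in T12h, of which 2 fell. Apart from Dusp4, Tenm3 and Egln1 they are named here after their values were seen. Sc4mol, a sterol demethylase (0.02), Mvd of the mevalonate pathway (0.07) and the ceramide synthase Cers4 (0.00) lay near no change in T12h and rose in T48h by 1.29, 1.48 and 1.31. Isyna1, which makes inositol phosphate, had 0.04, and the amino acid transporter Slc7a5 -0.25 (adjusted p = 0.15). The insulator protein Ctcf had 0.16 ± 0.08 and the oxygen-sensing hydroxylase Egln1 0.16 ± 0.08 (adjusted p = 0.26 and 0.20). Adjusted p-values of edgeR for the larger of these values were 0.053 for Klhl2 at 0.30, 0.144 for Mak16 at 0.23 and 0.114 for Camsap3 at 0.20, and absence of a call does not show that these genes did not change.

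The shift ran along the chromosome. Members span positions 3150922 to 129234049 of chromosome 8 and were split by their start into 13 windows of 10 Mb with 14 to 118 tested members each. In T12h the window medians exceeded that of genes off chromosome 8 in all 13 windows, by 0.33 to 0.58. In KO 12 of 13 did, from -0.37 in the sixth window, which holds 14 members, to 0.72 in the last. T48h had 12 of 13 above as well, from -0.06 in the twelfth window (75 members) to 0.74 in the fourth.

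**Figure D4:**
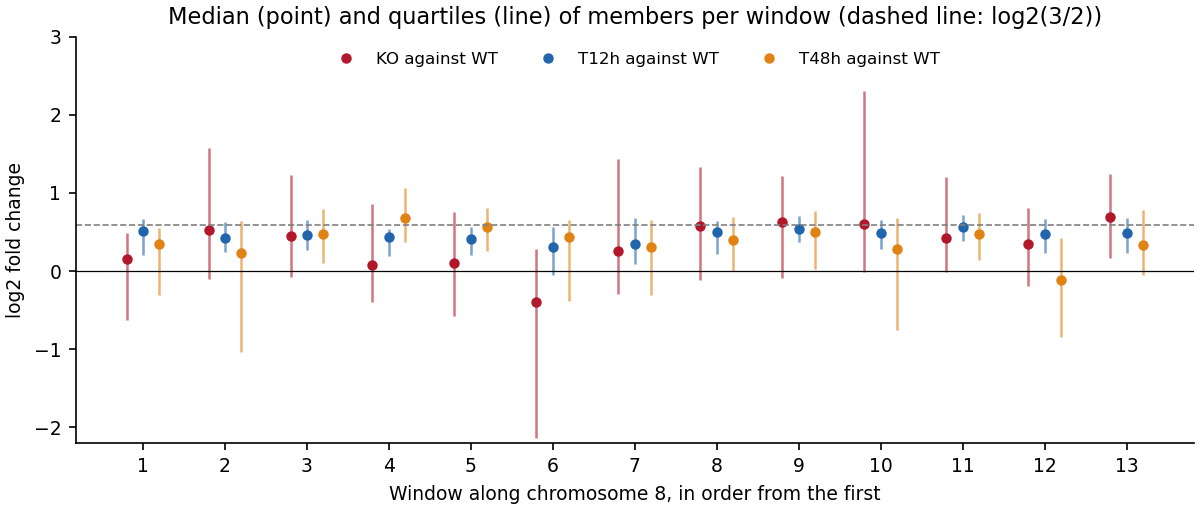
Median (points) and quartiles (lines) of members' log2 fold change against WT (y axis) in 13 windows of 10 Mb in order along chromosome 8 (x axis). T12h medians are above 0 in every window, whereas KO falls below 0 in the sixth and T48h in the twelfth.

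Medians of gene classes lay far apart in KO and close together in T12h. Most classes had no matching genes off chromosome 8 set beside them. Whether their differences in KO are particular to this chromosome was therefore not tested. Among 21 classes of members, 19 had at least 3 tested members and 17 at least 10. Over these 17 the medians ran from 0.21 to 0.61 in T12h, from 0.08 to 0.70 in T48h and from -0.11 to 1.42 in KO. All 19 medians were above that of genes off chromosome 8 in T12h and 18 of 19 in both KO and T48h. The carboxylesterases, with 4 tested members, passed the filter on low counts through KO alone. Their medians (6.34 in KO, 0.70 in T12h and -1.73, the exception, in T48h) are therefore not read. The counts of other classes can also include genes that passed that filter through KO alone. Of the tested members 439 belong to at least 1 class. The counts by class below stand beside the shares over all genes tested. These were 31.7% up and 32.4% down in KO, 7.9% and 6.11% in T12h, and 23.9% and 23.4% in T48h.

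**Figure D5:**
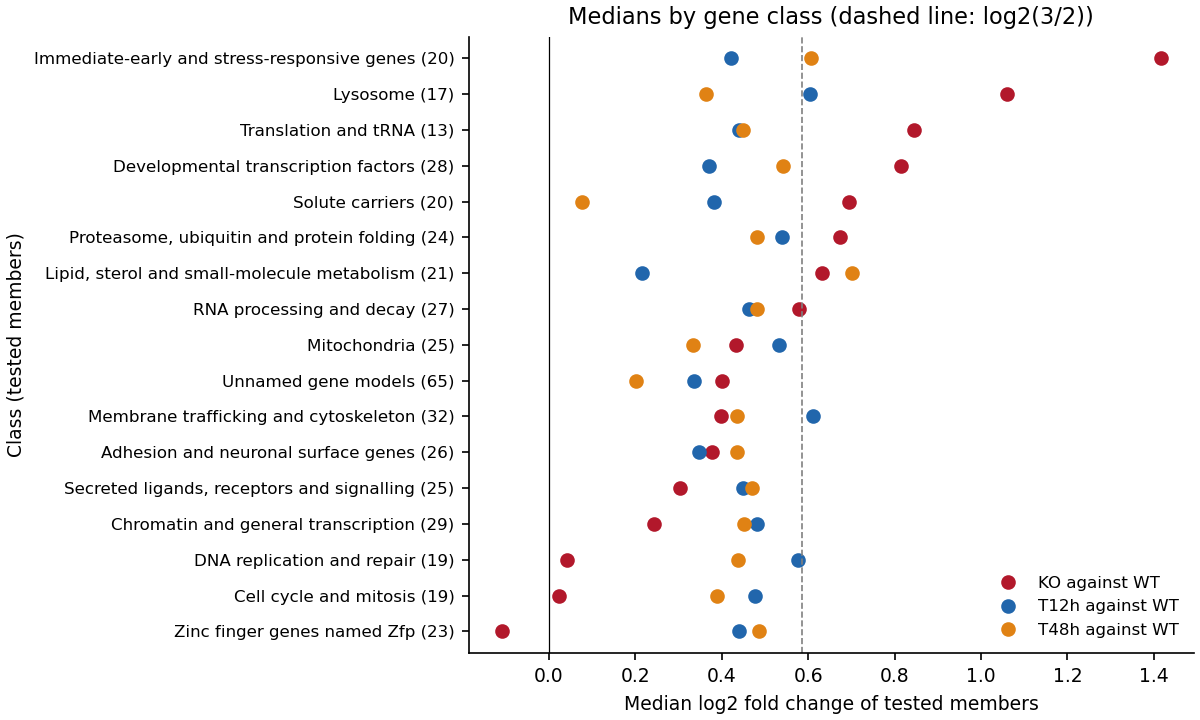
Median log2 fold change against WT (x axis) of the tested members of each class with at least 10 (y axis, number in brackets), in KO, T12h and T48h. Blue T12h points keep to 0.21 to 0.61, while red KO points spread from -0.11 to 1.42.

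Most genes of the cell's basic machinery rose in T12h, where 7.9% of all genes rose and 6.11% fell, and where 71.2% and 90.9% of the members in the third and highest expression quartiles rose. No class was tested against these shares. In DNA replication and repair 17 of 19 rose and none fell (median 0.58), in RNA processing and decay 24 of 27 rose and none fell (0.46), in chromatin and general transcription 25 of 29 and none (0.48), and in membrane trafficking and cytoskeleton 27 of 32 and none (0.61). Mitochondrial genes had 19 of 25 and none (0.53), proteasome, ubiquitin and folding genes 19 of 24 and none (0.54), cell cycle genes 14 of 19 and none (0.48) and translation and tRNA genes 9 of 13 and none (0.44). Named examples are Chtf8 of the sister chromatid cohesion clamp loader (0.66), the replication licensing factor Cdt1 (0.58), Cdc16 of the anaphase-promoting complex (0.62), the RNA-binding protein Elavl1 (0.49), the lysyl-tRNA synthetase Kars (0.41), the peroxidase Prdx2 (1.03), the retromer subunit Vps35 (0.77) and the tropomyosin Tpm4 (0.64).

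In KO the medians of these classes lay further apart. DNA replication and repair had 6 up and 7 down of 19 (median 0.04), and cell cycle and mitosis 6 up and 6 down of 19 (0.02). These shares were near the 31.7% and 32.4% of all genes in KO, where 51.3% of the tested members rose and 17.97% fell. Both medians lay below the 0.48 of all tested members, and neither class was tested against the other members. Orc6, a subunit of the origin recognition complex, stood at 80.6 and 82.7 CPM in WT, 155 and 162 in KO, 112 and 133 in T12h, and 147 and 138 in T48h, a rise in every group (0.96, 0.59 and 0.80). By contrast Neil3, a DNA glycosylase, and Asf1b, a histone chaperone, fell in KO by 2.84 and 1.53, and in T12h had 0.25 (adjusted p = 0.205) and a rise of 0.63. These last 2 were chosen after their values were seen. Translation and tRNA genes had 12 of 13 up in KO and none down (0.85), among them Eif4ebp1, the repressor of cap-dependent translation (1.39), and Abce1, the ribosome recycling factor (0.58). RNA processing had 20 up and 3 down of 27 (0.58), chromatin 16 up and 3 down of 29 (0.24), and mitochondrial genes 14 up and none down of 25 (0.43). In T48h the medians of these classes were back between 0.33 and 0.48: DNA replication and repair had 14 up and 1 down (0.44), cell cycle 12 and 0 (0.39), and translation 7 and 0 (0.45).

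Lysosomal members had 15 up and 2 down of 17 in KO (median 1.06), where 31.7% of all genes rose and 32.4% fell. In T12h 13 rose and none fell (0.60), and in T48h 11 rose and 2 fell (0.36). The list also holds Tcf25, Mbtps1 and Gas8, which do not encode lysosomal proteins. Tcf25, a factor of ribosome quality control, rose by 0.66, 0.60 and 0.62 in KO, T12h and T48h, and Mbtps1, the protease that activates sterol-responsive factors, by 0.47, 0.55 and 0.73. The proton pump subunit Atp6v0d1 and the acid ceramidase Asah1, chosen after their values were seen, rose by 1.45 and 2.03 in KO, 0.95 and 0.55 in T12h, and 0.24 and 0.44 in T48h. Lipid, sterol and small-molecule genes were the lowest class of at least 10 in T12h (8 up and none down of 21, median 0.21) and the highest in T48h (14 up and 3 down, 0.70). In KO 10 rose and 3 fell (0.63). Aprt, the adenine salvage enzyme, stood at 79.9 and 92.2 CPM in WT, 375 and 394 in KO, 142 and 135 in T12h, and 144 and 146 in T48h, so KO lay far above the other groups (2.16 against 0.69 and 0.75). Solute carriers had 13 up and 3 down of 20 in KO (0.69), 11 and 0 in T12h (0.38) and 7 and 3 in T48h (0.08). Over 287 solute carriers on other chromosomes the medians were 0.45, -0.04 and -0.23.

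Zinc finger genes named Zfp were the lowest class in KO, with 7 up and 8 down of 23 (median -0.11), near the 31.7% and 32.4% of all genes, and had 13 up and none down in T12h (0.44) and 15 up and 1 down in T48h (0.49). The 308 Zfp genes on other chromosomes had medians of -0.56, -0.03 and -0.04, below those of the members in each group. Zfp358 had 90.6 and 79.98 CPM in WT, 22.4 and 22.3 in KO, 151 and 162 in T12h, and 134 and 117 in T48h. It fell by 1.93 in KO and rose by 0.88 and 0.56. Unnamed gene models, of which 65 of 131 were tested, had medians of 0.40, 0.34 and 0.20 in KO, T12h and T48h, against -0.05, -0.10 and -0.31 for 1120 such models elsewhere.

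Developmental transcription factors had 13 up and 7 down of 28 in KO (median 0.82), 11 and 2 in T12h (0.37) and 13 and 7 in T48h (0.54). The share of these factors that fell in T48h was near the 23.4% of all genes. Zfpm1, a cofactor of GATA factors, stood at 35.9 and 31.8 CPM in WT, 65.3 and 64.9 in KO, 44.4 and 48.7 in T12h, and 452 and 427 in T48h. It rose in every group, by 0.94, 0.46 and 3.70. Sall1, a zinc finger factor of neural and kidney development read here from the larger of its loci (chr8:89027243-89057693), had -0.03 in KO and -0.01 in T48h, neither past the test, and rose by 0.63 in T12h. Immediate-early and stress-responsive genes had 15 up and 2 down of 20 in KO (1.42), 9 and 1 in T12h (0.42) and 11 and 3 in T48h (0.61). The insulin receptor substrate Irs2 rose by 0.55, 0.78 and 0.44. Egln1 fell by 1.07 in KO and rose by 0.63 in T48h. Without WT replicate a, Irs2 in T48h fell short of the test at 0.29.

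Secreted ligands, receptors and signalling genes had 12 up and 5 down of 25 in KO (0.30), 13 and 1 in T12h (0.45) and 12 and 6 in T48h (0.47). The share of this class that fell in T48h was near the 23.4% of all genes. Gab1, an adaptor of receptor tyrosine kinases, rose by 1.27, 0.52 and 0.71, and Prkaca, a catalytic subunit of protein kinase A, had -0.17 in KO (adjusted p = 0.051) and rose by 0.85 and 0.47. Adhesion and neuronal surface genes had 9 up and 9 down of 26 in KO (0.38), again near the shares over all genes, 8 and 2 in T12h (0.35) and 12 and 7 in T48h (0.43). Among 7 tested liver and blood plasma genes, 2 rose and 1 fell in KO, 1 rose in T12h, and 2 rose and 1 fell in T48h. These counts are too few to set against the shares over all genes. The median of the 7 genes was 1.53, 0.05 and 0.10, so this class, with few and weakly expressed members, was the one nearest to no change in T12h.

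Subunits of the same protein complex encoded on chromosome 8 and elsewhere could be set side by side. The list of 14 complexes was written after the first fits had been seen, so these values are a description. In T12h 27 of 28 subunits on chromosome 8 rose and none fell (median 0.60), while 6 of 112 partner subunits on other chromosomes rose and none fell (0.05). In T48h it was 22 of 28 with none down (0.48) against 23 up and 13 down of 112 (0.08), and in KO 20 up and 2 down (0.50) against 31 up and 25 down (0.05). GINS, part of the replicative helicase, has Gins2, Gins3 and Gins4 on chromosome 8, which rose in T12h by 0.63 ± 0.08, 0.48 ± 0.12 and 0.61 ± 0.10 (SE). Its partner Gins1 on chromosome 2 had -0.05 ± 0.15 (adjusted p = 0.88). The telomere-binding shelterin subunits Terf2, Terf2ip and Acd rose by 0.64, 0.64 and 0.89 in T12h, while Tinf2, Pot1a and Pot1b on other chromosomes had 0.07, 0.01 and -0.02, and Terf1 had -0.35 (adjusted p = 0.056). In the COG complex of the Golgi, Cog2, Cog4 and Cog8 rose by 0.81, 0.69 and 0.72 in T12h, and the medians of the 3 and of 5 partners were 0.72 and 0.04. In KO the same medians were 0.68 and -0.20. The median T12h fold change of the chromosome 8 subunits was above that of the partners in all 14 complexes, though single partners could exceed them, as Trappc2 of the TRAPP complex did at 0.79, not past the test, against 0.43 to 0.70.

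Gene clusters are given member by member. None of the 7 Ces1 carboxylesterases, enzymes that cleave esters in liver and gut, was tested, each having at most 0.57 CPM in any library. Of the Ces2 cluster, Ces2g stood at 0.00 and 0.03 CPM in WT, 6.17 and 5.13 in KO, 0.00 and 0.22 in T12h, and 0.16 and 0.05 in T48h. With 1 count in WT against 611 in KO, its ratio was 404 with a counting interval (95%) of 72.3 to 16000. Ces2b, Ces2e and Ces2f had at most 0.15 CPM in WT. In KO they had 0.38 and 0.46, 3.57 and 2.78, and 0.98 and 1.81 CPM. The KO calls of Ces2e and Ces2f missed the threshold with DESeq2 (adjusted p = 0.106 and 0.245), and that of Ces2b was lost without either WT library. Ces2a, Ces2c and Ces2h were not tested. The 4 tested Ces2 genes passed the filter on low counts through KO alone, being near 0 in the other groups. A KO call could thus only be a rise, so their KO values are given as levels. No reading is given for T12h and T48h.

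Metallothioneins bind zinc and copper and are induced by metals and stress. Mt1 (chr8:94179089-94180327) stood at 46.6 and 55.5 CPM in WT, 363 and 381 in KO, 64.4 and 64.5 in T12h, and 19.5 and 16.3 in T48h. Mt2 had 20.8 and 31.4, 232 and 238, 18.5 and 19.0, and 4.28 and 5.66 in the same order. Both rose in KO (2.87 and 3.17) and fell in T48h, with -1.51 and -2.39, so KO and T48h lay on opposite sides of WT. In T12h Mt1 had 0.34 and Mt2 -0.48 (edgeR adjusted p = 0.036 and 0.059). The call of Mt1 was lost without WT replicate a (0.22), without either T12h library, with upper-quartile scaling (0.30) and on both FPKM scales (0.34 each). Mt3, the form found in brain, had 2.75 and 3.41 CPM in WT, 2.64 and 3.399 in KO, 8.46 and 7.80 in T12h, and 0.19 and 0.17 in T48h. It rose by 1.40 in T12h, a call lost without WT replicate a (1.25) or T12h replicate a (1.34), and fell by 4.07 in T48h. Mt4 had no count in WT and 0.79 and 1.11 CPM in KO, and its call there was lost with DESeq2 (adjusted p = 0.16). With no count in WT, it could pass the filter on low counts only through a group where it was higher. Its KO call is therefore not read.

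Iroquois factors pattern the neural tube and the heart. Irx3 stood at 5.82 and 4.57 CPM in WT, 61.7 and 63.4 in KO, 3.31 and 4.63 in T12h, and 64.1 and 66.7 in T48h. Irx5 had 2.03 and 1.13, 48.2 and 42.6, 1.31 and 1.90, and 22.7 and 19.8. Both rose in KO (3.59 and 4.84) and T48h (3.65 and 3.74), and neither passed in T12h, with -0.40 and 0.01. Irx6 was not tested. Foxf1, a factor of lateral mesoderm, had 0.72 and 0.83 CPM in WT, 0.48 and 0.78 in KO, 2.18 and 2.09 in T12h, and 25.5 and 27.5 in T48h. It rose in T12h (1.46) and T48h (5.09), and its neighbour Foxc2 passed the test in T48h (4.05), with 0.25 and 0.39 CPM in WT and 5.07 and 5.52 in T48h. Foxl1 was not tested.

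The largest changes in KO were far beyond a ratio of 1.5. Snx20, a sorting nexin of blood cells, rose from 0.25 and 0.21 CPM in WT to 21.5 and 23.3 in KO, and Sh2d4a from 0.42 and 0.24 to 20.8 and 17.6 (log2 fold changes of 6.59 and 5.86). Snai3, a Snail-family factor, rose by 5.66 and the transketolase-like gene Tktl2 by 4.84. On the other side Necab2, a neuronal calcium-binding protein, stood at 114 and 111 CPM in WT, 3.87 and 2.21 in KO, 163 and 150 in T12h, and 3.13 and 2.92 in T48h. It fell by 5.14 in KO and by 5.22 in T48h, so KO and T48h lay far below WT and T12h. The next largest falls in KO were those of Sorbs2, an actin-linked adaptor (-4.44), BC068157 (-4.18), Jph3, a junctophilin of neurons (-3.56), Pde4c, a cAMP phosphodiesterase (-3.36), and Vat1l (-3.34). Within the clone Necab2, Wdr17 and Sorbs2 rose most in T12h against KO, and Snai3 and Sh2d4a fell most. Ces2g came next in size of fall but passed the filter through KO alone, so its fall is not read.

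Large changes in T48h went both ways. Lyl1, a factor of blood and vessel formation, had 0.08 and 0.00 CPM in WT and 4.96 and 5.88 in T48h. With 3 counts against 422 the ratio was 127, with a counting interval of 43.0 to 616. Lyl1 also rose in KO, a call lost without WT replicate b (1.74) and on log2(FPKM + 1) (0.18). Mylk3, the cardiac myosin light chain kinase, rose from 0.50 and 0.12 CPM to 29.3 and 30.3 (6.56). Gpr124, a receptor of brain vessels, stood at 7.96 and 6.32 CPM in WT, 8.39 and 9.36 in KO, 6.52 and 9.54 in T12h, and 416 and 465 in T48h, an increase of 5.94 in T48h, while its KO and T12h values (0.30 and 0.16) did not pass. Dok4, a docking protein of receptor kinases, rose by 6.14 in T48h, and by 0.90 in KO and 0.78 in T12h. The phosphatase gene Dusp26 rose by 5.60, and Plvap, a protein of endothelial diaphragms, by 5.42. Cbfa2t3, a corepressor in blood progenitors, and F2rl3, a thrombin receptor, were among the largest within the clone, at 47.9 and 43.5 CPM and 9.80 and 11.2 CPM in T48h. The largest decreases were those of the amino acid transporter Slc38a8 (-7.61), Vat1l (-5.48), Necab2 (-5.22), the neuronal membrane protein Gpm6a (-3.93), the brain proteoglycan Ncan (-3.68) and Rnf150 (-3.61). In T48h the endothelial and cardiac marker sums were also above and the eye-field sum below WT, and their part in these changes was not tested.

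In T12h the largest changes were smaller. Cdh11, a cadherin of mesenchyme and neural crest, stood at 207 and 190 CPM in WT, 23.6 and 19.1 in KO, 528 and 575 in T12h, and 321 and 315 in T48h. It rose by 1.47 in T12h and 0.68 in T48h, and fell by 3.21 in KO. Hsd11b2, which inactivates glucocorticoids, rose by 1.41 and Gpm6a by 1.17. Zfp423 is listed as several loci over the same span, and reads could be split between them. The smaller had 1.68 in T12h, lost without WT replicate a (1.55) and on log2(FPKM + 1) (1.35), and the larger 0.50.

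In T12h 11 members fell, and 4 to 7 when 1 WT or T12h library was left out: 5 without WT replicate a, 6 without WT replicate b, 4 without T12h replicate a and 7 without T12h replicate b. Klf2, a factor of pluripotent and endothelial cells, stood at 9.26 and 10.7 CPM in WT, 45.0 and 50.9 in KO, 4.85 and 4.23 in T12h, and 2.86 and 3.19 in T48h (-1.13 ± 0.16 SE in T12h, adjusted p = 0.00055). Kbtbd11, a Kelch-domain protein, had 13.2 and 14.3, 28.4 and 27.1, 6.996 and 7.23, and 5.99 and 7.94, with -0.95 in T12h. The others, which apart from Cbfa2t3 are named after their values were seen, were Rprl3 (-2.45), a locus joining Trim60 and Trim61 (-4.48), Gm10664 (-1.07), Unc13a (-0.77), Rasd2 (-1.73) and Cbfa2t3 (-1.08). The joined Trim locus was barely detected, with 0.25 and 0.33 CPM in WT and 0 and 0.02 in T12h (SE 1.31, edgeR adjusted p = 0.037). Rprl3 differed between the WT libraries, with 39.6 and 16.8 CPM, and had 7.74 and 2.51 in T12h (SE 0.49). The call of Cbfa2t3 was lost without WT replicate b (-0.81) or T12h replicate b (-0.82), with the first technical column alone (-0.75) and with the 2 compared groups alone (-1.10) and on log2(FPKM + 1) and log2(FPKM + 0.1) (-0.09 and -0.52). Klf2 and Kbtbd11 kept their T12h call under every alternative tried. The phospholipase Plcg2 had -0.60, the kinase phosphatase Dusp4 -0.46 and the teneurin Tenm3 -0.29, calls that were each lost without WT replicate a (-0.64, -0.37 and -0.25) and without T12h replicate a (-0.48, -0.45 and -0.28); that of Plcg2 was also lost without WT replicate b (-0.57) and that of Tenm3 without T12h replicate b (-0.32). Klf2 and Dusp4 rose in KO, by 2.27 and 1.45, and Tenm3 fell there by 1.71.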

How the data were processed

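RNA of day 6 embryoid bodies was measured in 16 samples, 4 groups of 2 duplicates with 2 technical runs each. The submitters' processing notes name the build mm10 and TopHat2 2.1.1, without their roles, and beside them Cufflinks 2.2.1, SAMtools 1.5 and deepTools. Annotation and strandedness: not given in the sources used here, and overlapping or antisense genes cannot be told apart. Per the file headers, the authors deposited estimated counts and FPKM per locus for 16 columns each. The columns name a group and a number but not the duplicate. Column pairs differed by 1.64 to 1.88 chi-square per degree of freedom within and 10.3 to 18.8 between pairs of a group, so the pairs were summed as technical runs, which left 8 libraries. Deposited counts were divided by the value of 1 fragment per column (0.630 to 1.29; 92.0 to 92.7% of values then whole within 0.02) and rounded; 112 companion columns were not used. Loci without a name, 3.04 to 3.40% of counts, stayed out.

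Counts were fitted with edgeR 4.0.16 (TMM scaling, quasi-likelihood test, all 4 groups, 4 residual degrees of freedom, Benjamini-Hochberg adjustment over 16130 genes), after a check on simulated data; the common biological variation was 12.6%. Alternatives were RLE, upper-quartile and off-chromosome-8 scaling, filters, DESeq2 1.42.0, limma 3.58.1 on log2(FPKM + 1) and log2(FPKM + 0.1), the first technical column alone, the 2 compared groups alone, other expression bins, and each library left out. Fold changes are log2, with SE from the F statistic. Intervals cover counting error only. Members, lists and tests were chosen with earlier results of these data known. Named genes are the 12 most abundant members by CPM, the 6 largest changes each way against WT and 3 within the clone (past the test, at least 5 CPM in the higher group, replicates not overlapping), the 3 of highest CPM per class, and the Ces, Mt, Irx and Fox clusters. Of the members 1064 matched RefSeq, which gave promoter windows. Others named are said to be chosen later. Some genes the rule or a marker list names are not reported here.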

Additional observations from a re-analysis of the deposited data

Results flagged for a closer look

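Loci of chromosome 8 that carry no gene name are outside the comparisons above, and 206 of them had enough counts for a fold change. Their median log2 fold change exceeded that of 3246 unnamed loci on other chromosomes by 0.142 in KO, 0.114 in T12h and 0.209 in T48h, each against WT. Their medians were -0.12, 0.00 and 0.21, and 10.2%, 0.971% and 12.6% of them rose by edgeR's test, against 10.4%, 1.48% and 6.59% elsewhere. The 23 tested loci left out by name had medians of 0.80, 0.54 and 0.50, with 16, 15 and 12 up and 3, 1 and 5 down.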

How the results depend on the processing

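No paired analysis was possible because the columns of the deposited tables carry no duplicate numbers. Counts of members called, of windows, of classes and of members near a ratio of 3 to 2 stayed within 1.5 times under each alternative run, except members that fell in T12h: 11, with 4 to 14 when a library was left out and 6 with the first technical column alone. The excess of the members' median kept its sign in every comparison and alternative. Values further from the reported one than the replicate spread (0.01 to 0.03) are given here. Ranges with a library left out cover all such fits, also those within that spread. For KO against WT (0.5005) the values were 0.484 without a filter, 0.444 at a mean CPM of at least 1 and 0.483 with the first technical column. They were 0.311 on log2(FPKM + 1), 0.446 on log2(FPKM + 0.1) and 0.458 to 0.490 with a library left out. For T12h against WT (0.502) they were 0.456 without a filter, 0.396 and 0.469 on the FPKM scales, and 0.479 to 0.511 with a library left out; for T48h against WT (0.449) 0.342, 0.325, 0.412 and 0.407 to 0.446 in the same order. For T12h against KO (0.064) they were 0.030 without a filter, 0.022 on log2(FPKM + 1) and 0.036 to 0.069 with a library left out. T48h against KO (-0.082) gave -0.054 at a mean CPM of at least 1, -0.051 with the first technical column, -0.040 on log2(FPKM + 1) and -0.122 to -0.051 with a library left out. T48h against T12h (-0.062) gave -0.096 without a filter and -0.030 on log2(FPKM + 1). Upper-quartile scaling moved the median of genes off chromosome 8 to -0.18 in T48h, with 357 members up and 112 down, and left the excess at 0.449; scaling by relative log expression turned the T12h against KO counts to 271 up and 282 down. All named loci of the chromosome, an alternative chosen after seeing the data, were within that spread. The difference between highest and lowest expression quartile, -0.287 in KO, 0.039 in T12h and 0.133 in T48h, turned in KO to 0.360 on log2(FPKM + 1) and 0.078 on log2(FPKM + 0.1). In T12h these scales gave 0.433 and 0.266, in T48h 0.381 and 0.270, and fixed CPM limits turned T48h to -0.030. A pseudocount shrinks low values by construction; other causes were not tested. In T12h, where the lowest quartile has 2 members up and 2 down of 173, the interquartile range there is 1.39; the part of depth was not tested.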
